A study of Mus musculus with 6 samples.

Results

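The MYC, MAX and MXD network is a family of transcription factors that compete for a shared partner. Its members were taken as the rows of the deposited count table with the gene symbols Myc, Mycn, Mycl, Max, Mxd1, Mxd3, Mxd4, Mxi1, Mnt and Mga, and 10 of 10 were found among the 29872 symbols of the table. The series holds 6 bulk RNA sequencing libraries of mouse bone marrow cells (strain C57BL/6): 3 of a chronic myeloid leukaemia group (CML) and 3 of a wild-type group (WT). Per the labels, all 6 came from untreated cells that were expanded ex vivo and carried the phenotype Lin-Sca1+cKit+CD150+, and the cells are called leukaemic stem cells in the CML group and haematopoietic stem cells in the WT group. The labels used here give no genotype, transgene, age or length of culture for either group, and they do not tie the libraries of a group to separate mice or cultures, so the p-values measure the spread between libraries, which may be technical.

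MYC, MYCN and MYCL are basic helix-loop-helix leucine zipper proteins that bind DNA as heterodimers with MAX, at E-boxes, and raise transcription of genes for ribosome production, nucleotide synthesis and cell growth. The MXD proteins, MXI1, MNT and MGA bind the same partner and repress; MXD proteins, MXI1 and MNT do so through the SIN3 histone deacetylase complex, and MGA through a variant Polycomb complex. In the blood system Myc and Mycn are both expressed by stem cells, MXD genes are known to rise as cells leave the cycle and differentiate, and MYC is a known effector of the BCR-ABL kinase that drives CML.

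The promoters of the 3 members that changed between the groups are shown first, because the changes were in opposite directions. They are the RefSeq stretches upstream of the start site (GRCm38.p6, minus strand, read 5′ to 3′), trimmed to the bases ahead of both the RefSeq and the GENCODE gene start. Of the 10 members, 9 had an entry and Myc did not. Capitals mark TTTGGCGC, a form of the E2F site, in Mycn; CCAAT, the CCAAT box, in Mxd1; and CACGTG, the canonical E-box, in Mxd4. These motifs were chosen after the sequences had been read, each was searched on both strands, and none of the marked matches overlap each other.
Mycn, chr12:12941915-12942086: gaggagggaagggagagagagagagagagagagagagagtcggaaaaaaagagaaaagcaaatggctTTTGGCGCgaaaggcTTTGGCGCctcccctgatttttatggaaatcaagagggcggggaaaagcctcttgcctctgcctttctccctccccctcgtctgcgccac
Mxd1, chr6:86669162-86669409: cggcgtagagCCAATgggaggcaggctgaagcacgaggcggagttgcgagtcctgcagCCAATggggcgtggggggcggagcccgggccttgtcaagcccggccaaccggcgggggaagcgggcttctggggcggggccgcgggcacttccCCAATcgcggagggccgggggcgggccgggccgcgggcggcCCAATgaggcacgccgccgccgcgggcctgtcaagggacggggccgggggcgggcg
Mxd4, chr5:34187721-34187960: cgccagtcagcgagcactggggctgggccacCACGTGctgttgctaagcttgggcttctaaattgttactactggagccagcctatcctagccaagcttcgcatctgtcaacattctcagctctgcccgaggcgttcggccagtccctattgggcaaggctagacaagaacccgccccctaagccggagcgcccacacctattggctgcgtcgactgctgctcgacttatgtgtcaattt

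The 300-base Mycn window (250 bases before and 50 after the RefSeq start site) held 2 matches to TTTGGCGC, starting 183 and 168 bases before that site. Among 32851 RefSeq promoter windows of the same length 0.51% held that motif, and 2, the Mycn window among them, held it at least 2 times. Because the motif was chosen after the Mycn sequence had been read, this rarity is no test. Other forms of the E2F site were not searched. The Mxd1 window held 4 CCAAT boxes, a motif present in 37.4% of all windows, and the Mxd4 window held 2. A single CACGTG lay 219 bases before the Mxd4 start site, and the windows of Max and Mnt held 1 each, against 7.15% of all windows with a match. The GC share was 56.7% for Mycn, 76.7% for Mxd1 and 61.0% for Mxd4, beside a median of 52.7% over all windows. These matches describe the letters of the reference and are not measurements of binding.

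The libraries held 13323469 to 17926847 counts. Kit, which encodes the cKit of the gate, was at 203 to 402 CPM (library-size-scaled counts, TMM-scaled) in the CML libraries and at 285 to 302 CPM in WT. Ly6a (Sca1) spanned 65.3 to 172 CPM among CML libraries and 40.03 to 64.2 CPM among WT libraries, and Slamf1 (CD150) 11.2 to 19.2 and 18.8 to 31.8 CPM. Although its ranges overlapped, Slamf1 was called lower in CML (log2 fold change -0.805, adjusted p = 0.047, edgeR). Kit and Ly6a were not called (adjusted p = 0.842 and 0.173, edgeR). Markers of other blood cells also differed between the groups. A list of 13 mast cell and basophil genes summed to between 2213 and 7730 CPM in the CML libraries and to between 184 and 376 CPM in WT. In CML 0 of the 13 were at 0 counts in the whole group, and in WT only Mcpt1 was. The sums of 12 dendritic cell genes were 104 to 387 CPM against 30.4 to 58.1 CPM, and those of 11 monocyte and macrophage genes 363 to 430 CPM against 238 to 296 CPM. The 8 megakaryocyte genes went the other way, at 124 to 193 CPM against 275 to 297 CPM in WT. The 19 cell cycle genes overlapped, at 3708 to 4094 CPM and, in WT, 4001 to 4507 CPM. Sums also overlapped for 12 neutrophil genes (210 to 315 CPM against 167 to 312 CPM in WT), 11 erythroid genes (383 to 477 against 375 to 424 CPM) and 12 lymphoid genes (73.0 to 92.6 against 62.2 to 83.0 CPM). The 10 immediate early genes, which respond to stimulation and handling, did not overlap, at 178 to 217 CPM in CML and 108 to 126 CPM in WT. Of the 9 tested, 4 rose and 0 fell. Across all genes tested, 10.2% were called higher and 7.20% lower. Other lists changed too, with 8 of 13 mast cell and basophil genes tested called higher and 0 lower. The same held for 7 of 11 dendritic cell genes and 5 of 9 monocyte and macrophage genes tested. Of the genes called in these lists, Mcpt1, Tph1, Tpsab1, H2-Aa, Ciita, Batf3 and Fscn1 passed the count filter only through the CML libraries. They held 0 to 18 counts over the 3 WT libraries, so they could only be called higher. The shares called in the mast cell and dendritic cell lists are therefore partly set by the filter. Among 19 cell cycle genes 2 rose and 2 fell, and among 6 megakaryocyte genes tested 0 rose and 2 fell. The overlapping erythroid sums combined opposite changes, as 2 of 8 genes tested rose and 2 fell. Their log2 fold changes were 4.54 for Aqp1, 3.48 for Klf1, -2.01 for Hbb-bs and -2.235 for Hbb-bt. Despite overlapping sums, 2 of 4 lymphoid genes tested rose, Cd79b (1.51) and Tcf7 (3.71), and 0 fell. The rest of the 12 listed were too scarce for the test. Klf1 and Tcf7 also passed the count filter only through the CML libraries. They held 7 and 13 counts over the 3 WT libraries, so they too could only be called higher. Cd79b held 511 counts over WT. The shares called higher in the erythroid and lymphoid lists are therefore also partly set by the filter. None of the 9 neutrophil genes tested was called. The part of these other cell types and of the immediate early response in the results below was not tested, and in bulk libraries fewer cells that express a gene cannot be told apart from less RNA per cell.

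Of the 10 members, 9 had enough counts to be tested, and 3 of the 9 changed between CML and WT: Mycn was lower in CML, and Mxd1 and Mxd4 were higher (quasi-likelihood test of edgeR, Benjamini-Hochberg adjusted p under 0.05 over all genes tested). Across all 16221 genes tested, 17.4% were called in either direction, 10.2% as higher and 7.20% as lower in CML. The values of the groups did not overlap for the same 3 members and for 35.0% of all genes tested, of which 18.5 percentage points were genes with every CML library above every WT library. The median log2 fold change was -0.005 over the tested members and -0.004 over all genes. The plot of every member by library shows the separation of these 3 genes beside the overlap of the rest.

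**Figure D1:**
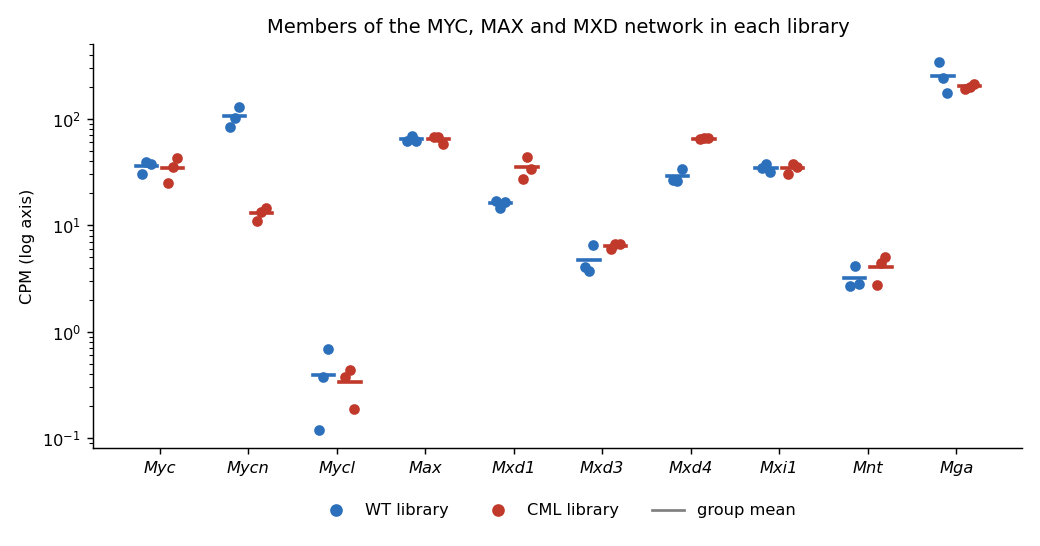
Level of each member in CPM (log axis) in the 3 WT and the 3 CML libraries; points are libraries and short lines are group means. Mycn lies at 84.5 to 129 CPM in WT and 10.9 to 14.7 CPM in CML, Mxd1 and Mxd4 lie higher in every CML library than in any WT library, and the other 7 genes overlap between the groups.

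Mycn, the paralogue best known from the nervous system and from neuroblastoma, had the largest difference of the network. Its level was 84.5, 102 and 129 CPM in WT replicates 1, 2 and 3 and 10.9, 13.2 and 14.7 CPM in the CML replicates of those numbers, from 1415 to 2073 counts per WT library and 174 to 234 per CML library. The highest CML library therefore stood far below the lowest WT library, and no library of either group was intermediate. The means were 105.3 ± 22.4 CPM for WT and 12.9 ± 1.88 CPM for CML (SD, n = 3 each), 8.15-fold lower in CML with a log2 fold change of -3.03 (SE 0.18, edgeR adjusted p = 2.95e-07). Under 14 other settings the log2 value stayed between -3.17 and -2.86, and each of them called the gene. Mycn lies on the minus strand of chromosome 12 (12936093 to 12941914, GRCm38), and no other annotated gene overlaps it.

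Myc itself did not follow its paralogue. The WT libraries were at 30.6, 39.2 and 37.6 CPM and the CML libraries at 24.8, 35.2 and 42.6 CPM. Both the lowest and the highest value of the 6 were CML libraries, so the WT range lay inside the CML range. Means were 35.8 ± 4.59 CPM for WT and 34.2 ± 8.93 CPM for CML, and the log2 fold change of -0.07 did not pass (95% interval -0.47 to 0.34, adjusted p = 0.843, edgeR); it was 0.12 without CML replicate 1 and 0.03 when scaled by library totals. The gene is on chromosome 15 (61985391 to 61990374, plus strand). Mycl, the paralogue best known from small cell lung cancer, was close to undetected, with 2 to 11 counts per WT library and 3 to 6 per CML library. It was left out of the test for its low counts (mean 0.39 ± 0.28 CPM for WT and 0.33 ± 0.13 CPM for CML).

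The makeup of the paralogues differed between the groups. Levels of different genes were compared as CPM per kilobase of the gene's exon model. On that scale Mycn exceeded Myc in each WT library, with ratios of 2.28, 2.15 and 2.83 in replicates 1, 2 and 3, and lay below Myc in each CML library, with ratios of 0.36, 0.31 and 0.28. Mycn made up 68.1% to 73.7% of the summed level of the 3 paralogues in WT and 22.1% to 26.5% in CML. The summed level itself was 45.2 ± 8.13 CPM per kilobase in WT and 16.6 ± 3.83 in CML, and the highest CML library (20.2) lay below the lowest WT library (36.9). These sums are descriptions with no test. With the longest coding length in place of the exon model the mean Mycn to Myc ratio was 2.89 in WT and 0.38 in CML, again without overlap.

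Max, the obligate partner, was nearly level. Its values were 62.1, 68.8 and 62.1 CPM in WT and 66.8, 67.6 and 57.8 CPM in CML replicates 1, 2 and 3. The log2 fold change was -0.006 (SE 0.12, 95% interval -0.26 to 0.25, adjusted p = 0.980, edgeR), and its sign turned under 4 of 14 other settings, with values from -0.05 to 0.09. Per kilobase of exon model, the level of Max was 0.32 to 0.47 of the summed paralogues in WT and 0.80 to 1.48 of that sum in CML. Per coding length the mean ratio was 1.335 in WT and 4.025 in CML. Whether Max lay below or above the paralogues in WT thus depended on the length chosen. By either length every CML library had a higher ratio than every WT library.

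Among the repressors that pair with MAX, the MXD genes split. Mxd4 (chromosome 5, 34173883 to 34187720, minus strand) was at 26.6, 26.3 and 33.5 CPM in WT and at 64.4, 65.4 and 65.7 CPM in CML. The 3 CML libraries were almost identical for this gene, and each was well above the highest WT library. Its mean of 65.2 ± 0.67 CPM against 28.8 ± 4.06 CPM was 2.26-fold higher in CML (log2 fold change 1.18, SE 0.13, adjusted p = 4.92e-05, edgeR). Mxd1 (chromosome 6, 86647042 to 86669161, minus strand), which encodes the MAX partner first named MAD and is known to rise in differentiating myeloid cells, was at 16.9, 14.5 and 16.7 CPM in WT and 27.1, 44.0 and 34.1 CPM in CML. The CML libraries spread more than for Mxd4, with the lowest in replicate 1 and the highest in replicate 2. Their mast cell and basophil sums had the same order (2213, 7730 and 4880 CPM in replicates 1, 2 and 3). The dendritic cell, monocyte and macrophage, immediate early and gate gene sums had it too, while the other marker lists did not. That order over 3 libraries was not tested. The mean was 35.1 ± 8.48 CPM against 16.04 ± 1.32 CPM, 2.18-fold higher (log2 fold change 1.13, SE 0.17, adjusted p = 7.04e-04, edgeR). Both calls held under each of 14 other settings, with log2 values of 1.11 to 1.30 for Mxd4 and 0.93 to 1.28 for Mxd1. A gene model antisense to Mxd4 shares 514 exon bases with it but held 0 counts in every library.

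Mxi1 and Mxd3 did not pass. Mxi1, which encodes a close relative of MXD1, was at 31.8 to 37.9 CPM in WT and 30.6 to 37.9 CPM in CML, with a log2 fold change of -0.005 (95% interval -0.29 to 0.28, adjusted p = 0.985, edgeR) whose sign turned under 4 of 14 other settings. A gene model on the opposite strand shares 194 exon bases with Mxi1 and held at most 4.7 counts in a library. Mxd3, the family member known to be expressed in proliferating cells in S phase, was scarcer, at 4.06, 3.73 and 6.48 CPM in WT and 5.96, 6.71 and 6.64 CPM in CML. WT replicate 3 lay among the CML libraries and the other two WT libraries below them. The log2 fold change was 0.44 (SE 0.24, adjusted p = 0.234, edgeR), and without WT replicate 3 it was 0.72 and passed (adjusted p = 0.0334), while without WT replicate 2 it was 0.28 (adjusted p = 0.586). Mxd3 shares 105 exon bases with Prelid1 on the opposite strand, a gene with up to 3365 counts in a library. The strand setting of the counting is not given in the sources used here, so the Mxd3 values are uncertain.

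**Figure D2:**
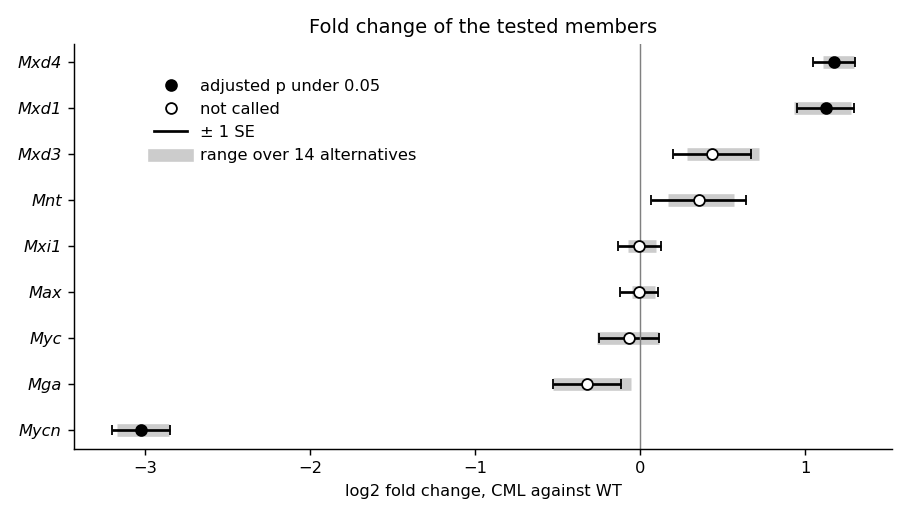
Log2 fold change of CML against WT (horizontal axis) for the 9 tested members, with bars of 1 SE and grey bands for the range over 14 other settings; filled points passed an adjusted p of 0.05. Mycn lies at -3.03, Mxd1 and Mxd4 at 1.13 and 1.18, and the bands of Myc, Max and Mxi1 cross 0.

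Mnt and Mga, the large repressors outside the MXD family, did not pass either. Mnt, a broadly expressed antagonist of MYC that also pairs with MLX, was at 2.69, 4.10 and 2.80 CPM in WT and 2.76, 4.45 and 5.07 CPM in CML. The groups overlapped, and the log2 fold change was 0.36 (SE 0.29, adjusted p = 0.439, edgeR) on only 155 counts in all WT libraries and 186 in CML. It was 0.17 without CML replicate 3 and 0.57 without CML replicate 1 or without WT replicate 2. Mga, which carries a T-box domain besides its helix-loop-helix domain, had the highest CPM of the network. It was at 339, 241 and 176 CPM in WT and 190, 201 and 214 CPM in CML, so the WT libraries spread from below to above all CML libraries. The log2 fold change was -0.32 (SE 0.20, adjusted p = 0.323, edgeR). Without WT replicate 3, the lowest of the 6, it was -0.53 and passed (adjusted p = 0.0261), and without WT replicate 1, the highest, it was -0.05 (adjusted p = 0.869).

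The order of levels per kilobase of exon model put Mycn first in WT, at 32.0 ± 6.81 CPM per kilobase. Max (17.9 ± 1.07), Mga (16.4 ± 5.34) and Myc (13.2 ± 1.69) came next; Max and Mga did not differ beyond their spread, nor did Mga and Myc. Mxi1 (5.08 ± 0.45), Mxd4 (3.40 ± 0.48), Mxd1 (2.27 ± 0.19), Mxd3 (2.01 ± 0.63), Mnt (0.69 ± 0.17) and Mycl (0.098 ± 0.070) followed, and of these Mxd1 and Mxd3 were within their spread. In CML Max was first (17.8 ± 1.52), ahead of Mga (13.2 ± 0.78) and Myc (12.6 ± 3.29), which were within their spread. Mxd4 was then at 7.68 ± 0.079, Mxi1 at 5.06 ± 0.54, Mxd1 at 4.96 ± 1.20 and Mycn at 3.92 ± 0.57, and of these neighbours Mxi1 and Mxd1 were within their spread, as were Mxd1 and Mycn. Mxd3 (2.72 ± 0.17), Mnt (0.88 ± 0.26) and Mycl (0.083 ± 0.032) came last. Mycn thus moved from rank 1 in WT to rank 7 in CML. Per coding length, which ignores the long untranslated parts of the MXD genes, Max ranked 1 in both groups and Mycn 2 in WT and 8 in CML.

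**Figure D3:**
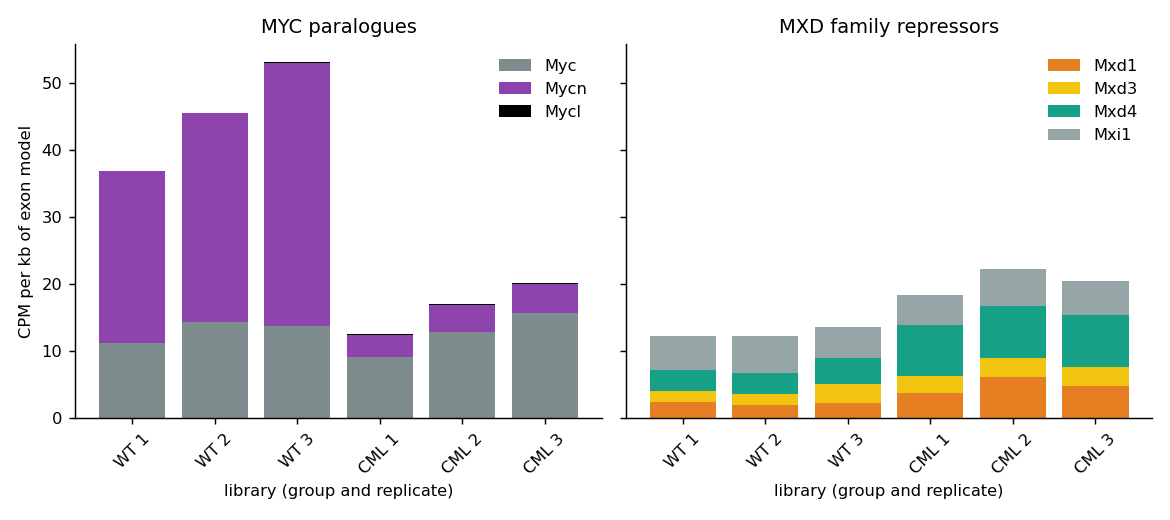
Summed level in CPM per kilobase of exon model (vertical axis, from 0) of the 3 MYC paralogues (left) and of Mxd1, Mxd3, Mxd4 and Mxi1 (right) in each library. The paralogue bars reach 36.9 to 53.2 in WT and 12.5 to 20.2 in CML, the Mycn segment accounts for most of the difference, and the repressor bars reach 12.3 to 13.7 in WT and 18.4 to 22.3 in CML.

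Set against each other on that scale, the paralogues summed to 3.54 ± 0.46 times the sum of Mxd1, Mxd3, Mxd4 and Mxi1 in WT and to 0.81 ± 0.16 times that sum in CML. The ratio was 3.01, 3.71 and 3.88 in the WT libraries and 0.68, 0.76 and 0.98 in the CML libraries. The size of the ratio depends on the length chosen, since per coding length the means were 0.88 in WT and 0.17 in CML; by either length every CML library lay below every WT library. Mnt and Mga, which also pair with MAX and repress, were left out of the sum of repressors. That sum was 12.75 CPM per kilobase of exon model in WT and 20.4 in CML. Mga alone was at 16.4 in WT and 13.2 in CML. The ratio is built from the values of Mycn, Mxd1 and Mxd4 already given, so it is no separate result. RNA levels do not give the amounts of protein.

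The genes whose log2 CPM followed Mycn or Myc most closely over the 6 libraries were listed as a description, with unnamed gene models left out. For Mycn these were Golm1, which encodes a Golgi membrane protein (Pearson r = 0.997), Spry2, a feedback inhibitor of receptor tyrosine kinase signalling (r = 0.995), and Trps1, a GATA-type repressor gene (r = 0.994). Golm1 was at 39.7 to 43.4 CPM in WT and 14.4 to 16.4 CPM in CML. Of the 9905 genes with a mean of at least 5 CPM that remained, 159 had r above 0.95 with Mycn. The high values include the shared step between the 2 groups. For Myc, which has no such step, 8 genes had r above 0.95, led by Rnf44 (0.995), Ccnl2 (0.983) and Pank4 (0.978).

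Among the genes that MYC proteins are known to raise, many fell in CML. Of 43 listed targets, all of them tested, 21 fell and 0 rose, 48.8% against the 7.20% of all genes called lower. DESeq2 and limma-voom also called 21 lower and 0 higher, and 0 were higher at an unadjusted p under 0.05. The median log2 fold change of the list was -0.34, beside -0.004 for all genes, and 39 of the 43 had a negative value, beside 50.4% of all genes. Every CML library lay below every WT library for 29 of the 43, against 16.5% of all tested genes. Median log2 ratios to the WT mean were -0.39, -0.35 and -0.30 in CML replicates 1, 2 and 3 and -0.014, -0.013 and 0.042 in the WT libraries. The number that fell was 13 when scaled by library totals, 12 without CML replicate 2 and 11 without WT replicate 2. This list, like the other gene lists here, was chosen with earlier results of these data known. Its shares beside the background are therefore descriptions and not tests.

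The 4 targets with the lowest adjusted p serve ribosome production, the cell cycle and polyamine synthesis. Dkc1, which encodes the pseudouridine synthase dyskerin, was at 221, 216 and 179 CPM in WT and 114, 109 and 120 CPM in CML (log2 fold change -0.84, SE 0.12, adjusted p = 3.91e-04, edgeR). Gnl3, which encodes the nucleolar protein nucleostemin, was at 221, 208 and 185 CPM against 123, 117 and 143 CPM. Ccnd2, the gene of cyclin D2, was at 377, 401 and 403 CPM against 213, 277 and 248 CPM. Srm, spermidine synthase, was at 85.7, 91.4 and 101 CPM against 59.9, 57.7 and 63.2 CPM. All 4 were lower in each CML library than in any WT library, with log2 fold changes of -0.68 for Gnl3, -0.68 for Ccnd2 and -0.62 for Srm, and kept their call under each of 14 other settings. Some of the best known targets did not pass, and these were picked after their values were seen. Odc1, which encodes ornithine decarboxylase, had a log2 fold change of -0.19 (adjusted p = 0.256, edgeR), Cad of pyrimidine synthesis -0.30 (0.131), Ldha, lactate dehydrogenase A, -0.34 (0.120) and Cdk4 -0.05 (0.799). Mcm4, a replication helicase subunit, was at -0.01 (adjusted p = 0.958, edgeR).

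**Figure D4:**
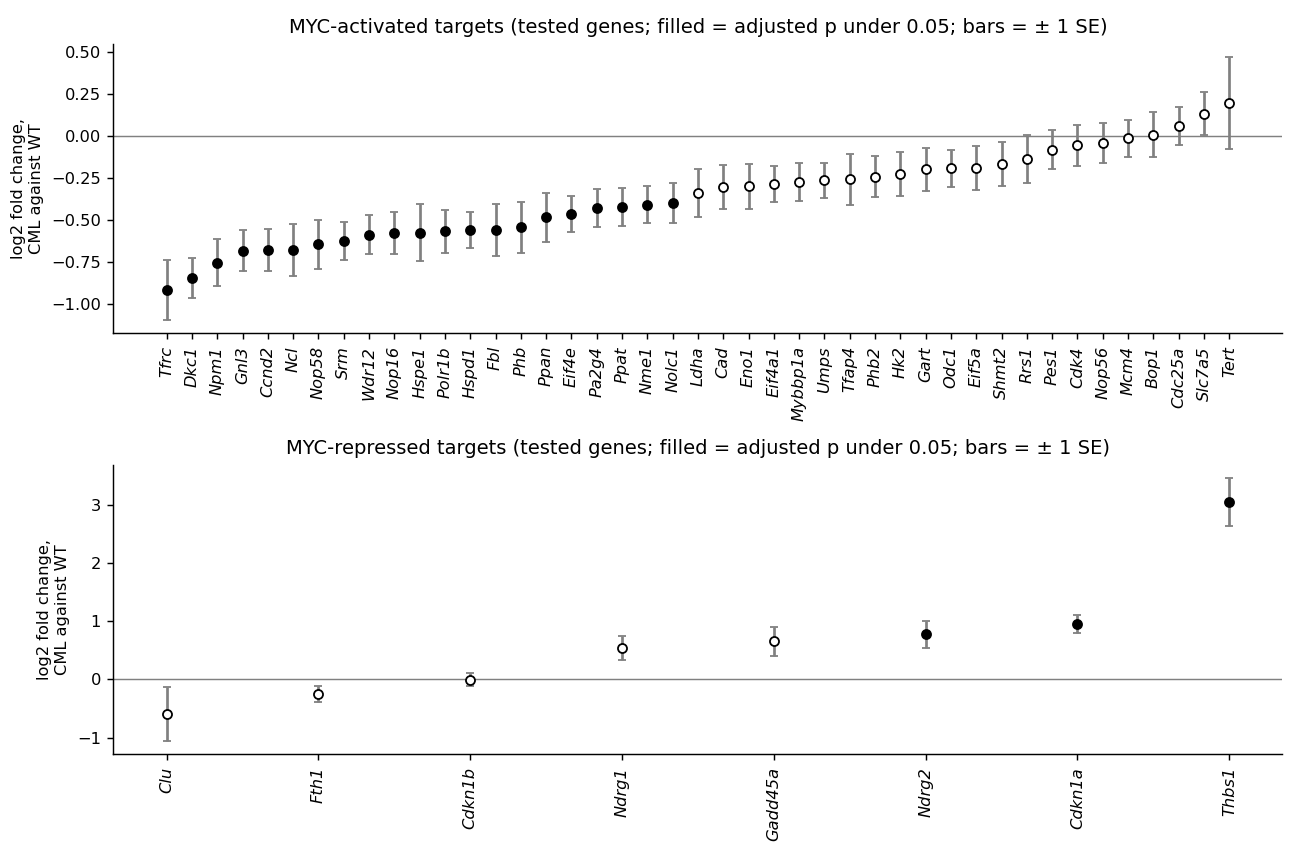
Log2 fold change of CML against WT (vertical axes) for 43 genes known to be raised by MYC (top) and 8 tested genes known to be lowered by MYC (bottom), with bars of 1 SE; filled points passed an adjusted p of 0.05. In the top panel 21 points are filled and all of these lie below 0, and in the bottom panel 3 are filled and lie above 0.

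Genes that MYC is known to lower moved the other way in part. Of 10 listed, 8 had enough counts, and 3 of the 8 rose and 0 fell, beside 10.2% of all genes called higher; their median log2 fold change was 0.60. Negative log2 values were seen for 3 of the 8, Clu (-0.60), Fth1 (-0.26) and Cdkn1b, none of them called. Without CML replicate 1, 5 of 9 tested rose. The gene added to that fit was Cdkn2b, which passed the count filter only through CML replicates 2 and 3 (32 and 27 counts). The 5 of 9 is therefore not a like count to the 3 of 8. Cdkn1a, which encodes the cyclin-dependent kinase inhibitor p21, was at 36.3, 41.2 and 45.03 CPM in WT and 62.3, 96.2 and 78.4 CPM in CML (log2 fold change 0.95, SE 0.16, adjusted p = 0.00133, edgeR). Thbs1, the gene of thrombospondin, rose from 1.09 ± 0.29 to 9.07 ± 4.26 CPM (log2 fold change 3.05, SE 0.42, adjusted p = 8.71e-04, edgeR). Both genes were lowest among the CML libraries in replicate 1 and kept their calls under 14 other settings. Ndrg2 rose by 0.77 (adjusted p = 0.0397, edgeR), a call lost without CML replicate 2 or 3 or WT replicate 1 or 2. Cdkn1b, which encodes p27, had a log2 fold change of -0.004. Cdkn2b was not tested in the main fit, with 68 counts over the CML libraries and 7 over WT.

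In the list of SIN3 complex genes, which MXD proteins and MNT recruit, 2 of 15 genes fell and 0 rose, 13.3% beside the 7.20% background, with a list median of 0.04; without WT replicate 3, 4 fell and 1 rose. Sap30, a subunit of that complex, was at 30.8, 29.4 and 27.6 CPM in WT and 16.5, 16.8 and 16.8 CPM in CML (log2 fold change -0.81, SE 0.13, adjusted p = 8.81e-04, edgeR) and kept its call under 14 other settings. Hdac2, a histone deacetylase of the complex, fell by 0.49 (adjusted p = 0.0178, edgeR), and lost the call without CML replicate 2 or 3 or WT replicate 1 or 2. The scaffold genes Sin3a and Sin3b showed little difference, at log2 values of 0.10 (adjusted p = 0.610, edgeR) and 0.08 (0.713). In the list of partners of MGA in its Polycomb complex 3 of 11 fell and 0 rose, 27.3% beside the 7.20% background, with a list median of -0.17 and 8 of 11 negative values. These were Yaf2 (-0.43, adjusted p = 0.0209, edgeR), Cbx3 (-0.43, 0.0431) and Pcgf6 (-0.43, 0.0487), and 0 of the 11 were called when scaled by library totals, without CML replicate 2, or without WT replicate 1 or 2.

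Genes that act on MYC proteins were mostly not called. Among 16 cofactors, including the acetyltransferase scaffold Trrap, 0 were called by edgeR in either direction, as with DESeq2 and limma-voom, and 1 had an unadjusted p under 0.05; the list median was -0.08. Without WT replicate 1 or WT replicate 3, 1 of the 16 was called lower. Of 18 genes of MYC protein turnover 2 fell and 0 rose, 11.1% beside the 7.20% background. Cip2a, which encodes an inhibitor of the phosphatase that destabilises MYC, was at 230, 209 and 174 CPM in WT and 135, 137 and 166 CPM in CML (log2 fold change -0.48, SE 0.13, adjusted p = 0.0254, edgeR), and its call was lost without CML replicate 1 or 2 or WT replicate 1 or 2. Set, which encodes another inhibitor of that phosphatase, fell by 0.36 (adjusted p = 0.0467, edgeR) and lost its call under 8 of 14 settings, without any one of 5 libraries (all but WT replicate 3) among them. Fbxw7, the ubiquitin ligase subunit that marks MYC for decay, had a log2 fold change of 0.06 (adjusted p = 0.842, edgeR).

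The parallel MLX arm of the network, in which MLX pairs with the glucose sensors MLXIP and MLXIPL, was measured in 4 of 5 listed genes. Mlx was at 26.1, 24.4 and 33.3 CPM in WT and 34.5, 37.7 and 36.4 CPM in CML, without overlap, but missed the threshold (log2 fold change 0.38, SE 0.14, adjusted p = 0.0808, edgeR). Mlxip had a log2 fold change of 0.06 (adjusted p = 0.839, edgeR). Of the targets of this arm, Arrdc4, an arrestin-like gene, fell by 0.63 (adjusted p = 0.0159, edgeR; 0.081 without CML replicate 3), and Txnip, a regulator of glucose uptake, had a log2 fold change of -0.20 (adjusted p = 0.324, edgeR) at 577 to 782 CPM. Mlxipl had 15 counts over the CML libraries and 1 over WT and was not tested.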

How the data were processed

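Bulk RNA was sequenced from 6 libraries, and the sample titles gave each one's group and replicate. The authors deposited estimated counts per gene, not scaled to a common total, of which 33.9% to 36.0% per library were not whole. The submitters' processing notes name STAR 2.7.3a and Partek 8.0, with build mm10, but no role or order; how genes were annotated and strand handled is not given in the sources used here. Gene models came from GENCODE M21 (GRCm38), matched by symbol (28888 of 29872, all 10 members). Promoters came from RefSeq (GRCm38.p6).

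Counts were rounded, filtered with filterByExpr (minimum count 10; 16221 genes left) and tested with the quasi-likelihood test of edgeR 4.0.16 in R 4.3.3 (TMM scaling, robust, group as the only term, two-sided, Benjamini-Hochberg adjusted p under 0.05). SE is the log2 fold change divided by the root of F. The fit was tested on simulated data. The processing notes name no step that uses molecular identifiers, so counts cannot be taken as independent molecules. Correlations used log2 of CPM plus 0.5, and unnamed gene models were left out of the ranking by correlation with Myc and with Mycn. Alternatives were other scalings, filters and tools (DESeq2 1.42.0, limma 3.58.1), a replicate block, and leaving out each library. The members, gene lists and tests were chosen with earlier results of these data known. The text names all members, up to 4 called genes per pathway list by lowest adjusted p, and the 3 genes most correlated with Myc and with Mycn; any other list member that is named (for example Odc1, Sin3a, Fbxw7, Mlx), and Prelid1, was picked after its values were seen.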

Additional observations from a re-analysis of the deposited data

How the results depend on the processing

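The calls of Mycn, Mxd1 and Mxd4 held under 14 alternatives: 2 other scalings, 2 other tools, 2 other filters, a fit without robust estimation, a replicate block and 6 fits without 1 library. Myc, Max and Mxi1 were not called in any of them, and their signs turned: by library totals to 0.029, 0.093 and 0.095, and at a mean of at least 50 counts to 0.009 for Max and 0.011 for Mxi1. Without single libraries Myc ran from -0.259 (CML replicate 3) to 0.116 (CML replicate 1), Max from -0.047 to 0.062 (CML replicate 3; 0.039 without WT replicate 2) and Mxi1 from -0.076 (CML replicate 2) to 0.072 (CML replicate 1; 0.058 without WT replicate 2). Without single libraries the members called numbered 2 to 3 higher and 1 to 2 lower; the added ones, Mxd3 and Mga, came without WT replicate 3.

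Over all genes, library totals gave 732 called lower, against 1168, and single-library fits 1011 to 2021 higher and 455 to 2101 lower. By library totals 1 turnover gene, 0 Polycomb partners and 13 activated targets were lower and 1 SIN3 gene was higher. At a mean of 50 counts 1 turnover gene and 1 Polycomb partner were lower, and with no filter 1 cofactor was lower. Without single libraries the ranges were 11 to 20 activated targets lower, 2 to 5 repressed targets higher, 0 to 3 turnover genes lower and 0 to 1 higher, 1 to 4 SIN3 genes lower and 0 to 1 higher, 0 to 3 Polycomb partners lower, 0 to 1 cofactors lower, and 0 to 1 genes of the MLX arm in each direction. The causes were not tested. Per coding length the Mycn to Myc ratio was 0.38 in CML and 2.89 in WT, and the ratio of paralogues to MXD genes 0.17 and 0.88; that length was chosen after seeing the data, and the planned length from RefSeq proteins was not run. Without single libraries these ratios ran from 0.30 to 0.34, 2.22 to 2.55, 0.72 to 0.87 and 3.36 to 3.80 on exon models.

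The labels used here do not say whether same-numbered libraries of the 2 groups belong together. Their deviations correlated at -0.047 to 0.010, and 0 of 6 libraries correlated best with their own number. That gave no sign of pairing, but with 3 libraries per group it cannot exclude a shared preparation. With the replicate block 1607 genes were higher and 1200 lower, the members called were 2 higher and 1 lower, and 1 turnover gene was lower; Ndrg2, Nolc1, Pcgf6 and Set lost their calls. Depth limits Mycl, at 2 to 11 counts per library, and Mnt, at 44 to 81.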
